A study of Mus musculus with 6 samples.

Results

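Small nucleolar RNAs and the genes named for hosting them were followed across 3 subsets of mouse skin macrophages. The group held every gene whose symbol begins with Snora, Snord, Scarna, Rnu3 or Snhg and that was read by an array probe set carrying a single gene symbol, with the brightest probe set standing for the gene. It came to 94 of 22180 genes: 48 box C/D small nucleolar RNAs (Snord and Rnu3), 26 box H/ACA small nucleolar RNAs (Snora), 5 small Cajal body RNAs (Scarna) and 15 host genes (Snhg). All members were chosen by name, and the group was taken up with results of these data already known. Mean log2 signal decided which members were bright enough to test. Those at or above the 30th percentile of all genes, 4.335, were tested, which held for 75 members: 38 box C/D, 21 box H/ACA, 2 Cajal body and 14 host genes. Counts below are over those 75 and not over all 94. Just inside that level lay Snora62 (4.34) and Snord69 (4.37), and just outside it lay Snora35 and Snord19 (4.30 each).

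The cells were CX3CR1high, CX3CR1int (intermediate) and CX3CR1low macrophages, sorted by fluorescence from the digested dermis of ear skin of C57Bl/6 mice aged 2 weeks. All mice, in every subset, were Cx3cr1+/gfp: the gene for green fluorescent protein replaces a copy of Cx3cr1, the fractalkine receptor gene, so every cell carried a single working copy of that gene. Each subset had 2 samples, each a pool of 4 mice, from 2 independent litters raised in a pathogen-free facility without ear clipping. Total RNA was amplified and measured on 1 array per sample, 6 arrays in all, and values are log2 normalised signals. Cx3cr1 itself was at 10.55 and 9.51 in CX3CR1high cells, 7.05 and 6.84 in CX3CR1int cells, and 5.87 and 7.01 in CX3CR1low cells, so its transcript set the high subset apart but did not order the other 2. The mean log2 signal of 8 macrophage markers was 10.27 and 10.39 in CX3CR1high, 10.40 and 10.52 in CX3CR1int, and 10.47 and 10.37 in CX3CR1low cells, high in all 3 subsets. Replicates 1 and 2 of every subset differed in the sex of the pooled mice: the female transcript Xist was at 7.39 to 7.97 in replicates 1 and 10.99 to 11.39 in replicates 2. The spread between the 2 arrays of a subset includes that difference.

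Small nucleolar RNAs guide enzymes to ribosomal RNA in the nucleolus. Box C/D RNAs place methyl groups on ribose with the methyltransferase fibrillarin, box H/ACA RNAs turn uridine into pseudouridine with dyskerin, and small Cajal body RNAs do the same to the RNAs of the spliceosome. A few, such as U3 (Rnu3a and Rnu3b1) and the Snora73 pair, serve the cleavage of the ribosomal precursor instead. In mammals most are cut out of introns of a host gene. Many hosts make ribosomal proteins or translation factors, whereas the Snhg hosts are largely non-coding genes whose spliced RNA is degraded early while the intron RNAs persist.

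Members were lowest in CX3CR1int cells more often than in either other subset. Both CX3CR1int arrays lay below all 4 other arrays for 30 of the 75 tested members (40%), against 5.85% of all genes tested. The reverse, both CX3CR1int arrays above the other 4, held for 2 members (2.67%), Snord15a and Snord88c, against 5.96% of all genes. The mean of the CX3CR1int subset was the lowest of the 3 means for 54 members (72.0%), against 29.7% of all genes. The lowest mean was that of CX3CR1low cells for 12 members (16%), against 34.7%, and that of CX3CR1high cells for 8 (10.7%), against 34.5%. The 30 members came from every class: 11 of 38 box C/D RNAs, 9 of 21 box H/ACA RNAs, 9 of 14 host genes and 1 of 2 Cajal body RNAs. They were not 30 separate units. By position, Snora44 lies in Snhg12, which was counted as well, and Snord43 and Snord83b both lie in Rpl3. Snora73a and Snora73b both lie in Snhg3, also counted, and Snord49b and Snord65 both lie in 2410006H16Rik. The 2 CX3CR1high arrays lay above all others for 16 members (21.3%), against 9.49% of genes, and below all others for 0, against 8.83%. The 2 CX3CR1low arrays lay above all others for 8 members (10.7%), against 6.47%, and below all others for 2 (2.67%), against 7.42%. The pattern was noticed in these data and is given as a description, with no test over the members.

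**Figure D1:**
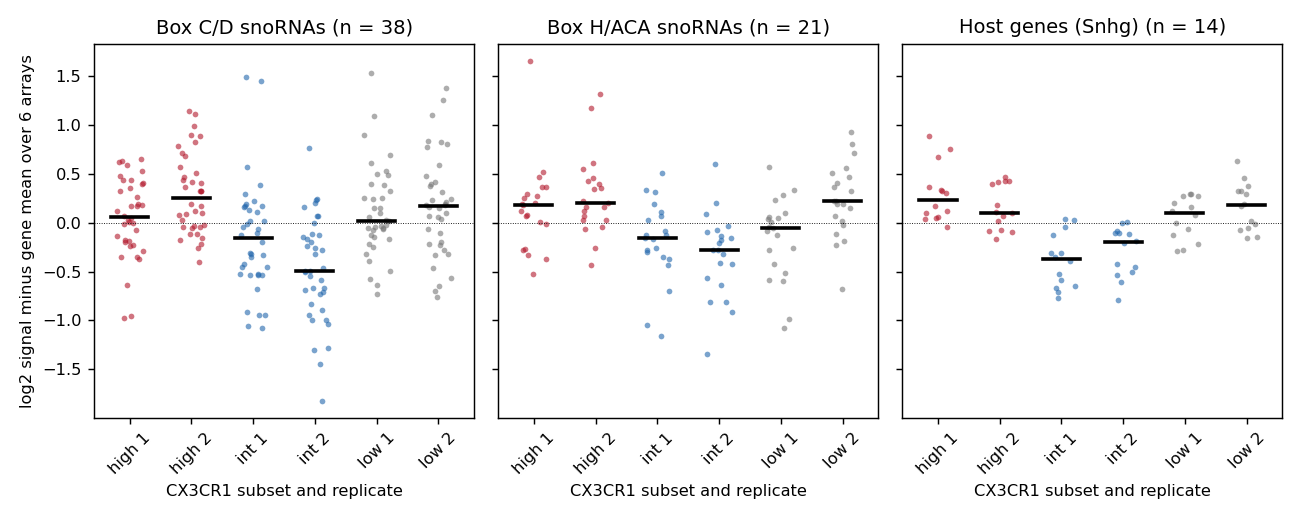
Log2 signal of each tested member on each of the 6 arrays, minus the mean of that member over the 6 arrays, for box C/D RNAs, box H/ACA RNAs and host genes. Points are members and black bars are medians, which lie below 0 on both CX3CR1int arrays in the 3 classes and nowhere else apart from CX3CR1low replicate 1 in the box H/ACA class (-0.06).

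Taken array by array, the median member lay 0.12 and 0.18 above its own mean over the 6 arrays in CX3CR1high cells, -0.26 and -0.32 from it in CX3CR1int cells, and 0.02 and 0.19 above it in CX3CR1low cells. For all genes tested the same medians stayed between -0.03 and 0.02. The signals had been normalised, which by itself holds such medians near 0, so they do not show that RNA input or quality was alike. Box C/D medians were 0.06 and 0.26 in CX3CR1high, -0.16 and -0.49 in CX3CR1int, and 0.02 and 0.17 in CX3CR1low cells. Host gene medians were 0.24 and 0.11 in CX3CR1high, -0.37 and -0.20 in CX3CR1int, and 0.10 and 0.18 in CX3CR1low cells. Both CX3CR1int arrays contributed, the second more for box C/D RNAs and the first more for host genes.

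**Figure D2:**
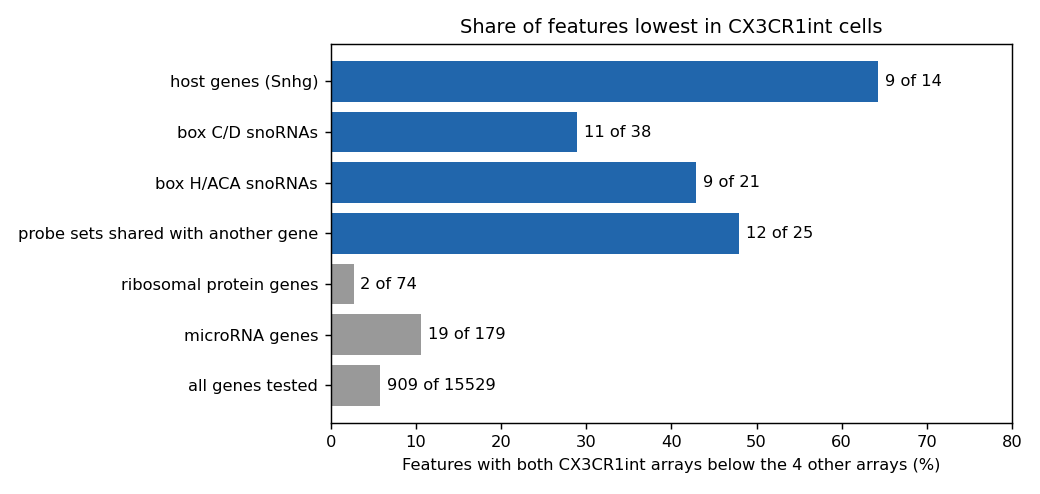
Share, in percent, of the features of a set whose 2 CX3CR1int arrays both lay below the 4 other arrays, with counts at the bars. Host genes (64.3%), box H/ACA RNAs (42.9%) and box C/D RNAs (28.9%) stand above microRNA genes (10.6%), all genes (5.85%) and ribosomal protein genes, matched by symbol (2.7%). So do the probe sets labelled as shared with another gene (48.0%). These stood outside the group and carry a Snora, Snord, Scarna, Rnu3 or Snhg symbol together with other symbols.

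Each pairwise comparison asked how 2 neighbouring or opposite subsets of the CX3CR1 range differ, and all 3 share arrays, so they are not independent. CX3CR1high minus CX3CR1int had a median log2 difference of 0.53 over box C/D RNAs, 0.49 over box H/ACA RNAs and 0.44 over host genes, against 0 over all genes. It was above 0 for 32 of 38 box C/D RNAs, 17 of 21 box H/ACA RNAs and 14 of 14 host genes, against 50% of all genes. The groups did not overlap, with CX3CR1high higher, for 40 members (53.3%) against 18.3% of all genes. With CX3CR1high lower, this held for 2 members (2.67%) against 18.5%. CX3CR1int minus CX3CR1low had medians of -0.35, -0.29 and -0.49 over the same 3 classes, against 0.01 over all genes. It was above 0 for 14 of 75 members (18.7%), against 51.7% of all genes. The arrays did not overlap, with CX3CR1int lower, for 38 members (50.7%) against 14.8%, and with CX3CR1int higher for 4 (5.33%) against 16.6%. CX3CR1high minus CX3CR1low was closer to level, with medians of 0.15, 0.12 and 0.21. It was above 0 for 50 of 75 members (66.7%), against 51.0% of all genes. Those small medians depended on single arrays: the box H/ACA median was -0.09 without CX3CR1low replicate 1, and the box C/D median was 0.04 without that array and 0.01 without CX3CR1high replicate 2. There the arrays did not overlap, with CX3CR1high higher, for 20 members (26.7%) against 19.8% of all genes. With CX3CR1high lower, this held for 10 (13.3%) against 18.4%.

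Few members passed the test, limma with p-values adjusted over all 15529 genes at a threshold of 0.05. Between CX3CR1high and CX3CR1low cells 1 member (1.33%) was called, Snord89, where 0.399% of all genes were called. Between CX3CR1high and CX3CR1int cells 1 member (1.33%) was called, Snhg5, where 0.142% of all genes were called. Between CX3CR1int and CX3CR1low cells 0 members were called, where 0.00644% of all genes were. At an unadjusted p below 0.05, 30 members (40%) were higher and 2 (2.67%) lower in CX3CR1high than in CX3CR1int cells, against 4.17% and 3.72% of all genes. In CX3CR1int against CX3CR1low cells 2 (2.67%) were higher and 27 (36%) lower at that level, against 2.22% and 2.67% of all genes. In CX3CR1high against CX3CR1low cells 7 (9.33%) were higher and 4 (5.33%) lower, against 4.82% and 4.84% of all genes. The small RNAs were noisier than genes at large, with a median standard deviation between the 2 arrays of a subset of 0.45 for box C/D RNAs and 0.35 for box H/ACA RNAs, against 0.19 for all genes. That of host genes was 0.18. With the replicate number as a blocking factor, 2 members (2.67%) were called in CX3CR1high against CX3CR1low cells (Snora20 and Snord89), where 0.992% of genes were. In CX3CR1high against CX3CR1int cells 3 (4%) were called (Snhg5, Snord104 and Snord89), where 0.303% of genes were, and 0 in the remaining comparison.

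**Figure D3:**
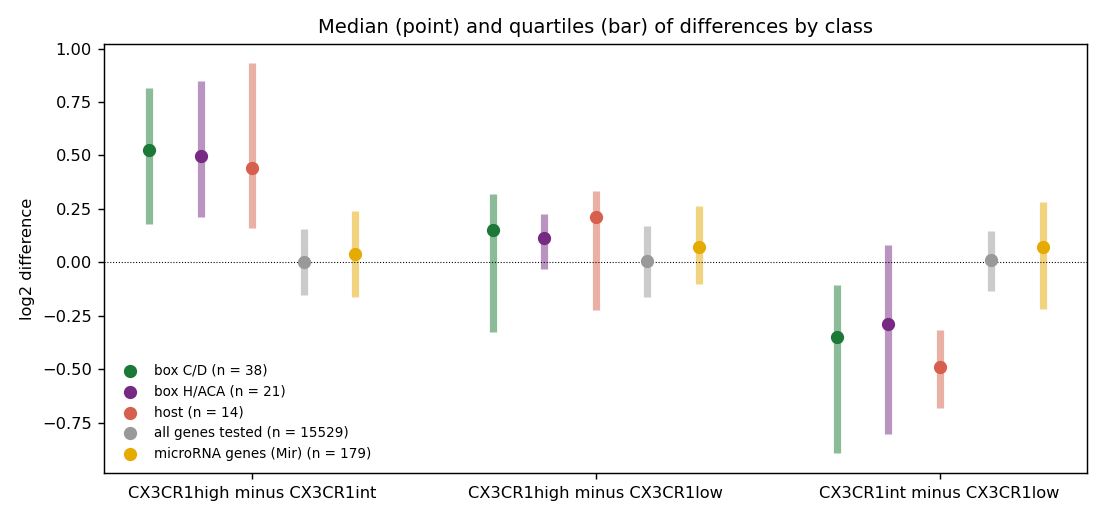
Median (point) and quartiles (bar) of the log2 differences in the 3 comparisons for box C/D RNAs, box H/ACA RNAs, host genes, all genes tested and microRNA genes. The 3 member classes lie above 0 in CX3CR1high minus CX3CR1int (0.44 to 0.53) and below 0 in CX3CR1int minus CX3CR1low (-0.49 to -0.29), where all genes and microRNA genes stay within 0.07 of 0.

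Among host genes, whose mean log2 signals ran from 2.32 (Snhg14) to 9.98 (Snhg6) with a median of 7.01, Snhg5 had the largest difference. Snhg5 was at 8.87 and 8.54 in CX3CR1high cells, 7.40 and 7.32 in CX3CR1int cells, and 8.41 and 8.13 in CX3CR1low cells. The CX3CR1int arrays lay 0.73 below the nearest other array. It was 2.54-fold higher in CX3CR1high than in CX3CR1int cells (log2 difference 1.35 ± 0.19, SE, n = 2 each, adjusted p = 0.0474). Between CX3CR1int and CX3CR1low cells its difference of -0.91 did not pass (adjusted p = 0.684). Its call against CX3CR1int cells was lost without any 1 of the 6 arrays, with adjusted p-values up to 0.515 over all alternatives.

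Snhg12 and Snhg15 had the same shape without passing. Snhg12 was at 7.46 and 7.59 in CX3CR1high, 6.54 and 6.59 in CX3CR1int, and 7.24 and 7.32 in CX3CR1low cells, a difference of 0.96 ± 0.17 (SE) between the first 2 subsets (adjusted p = 0.104). Snhg15 was at 7.69 and 7.41 in CX3CR1high, 6.24 and 6.56 in CX3CR1int, and 7.21 and 6.96 in CX3CR1low cells (1.15 ± 0.20, SE, adjusted p = 0.104). In both genes the 3 subsets did not overlap on any array, in the order CX3CR1high, CX3CR1low, CX3CR1int.

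Snhg1, the host in which small nucleolar RNAs were found to be the lasting products of a non-coding gene, was at 8.72 and 8.77 in CX3CR1high, 7.96 and 7.85 in CX3CR1int, and 8.14 and 8.68 in CX3CR1low cells. Snhg6, the brightest host, was at 10.30 and 10.41 in CX3CR1high, 9.33 and 9.77 in CX3CR1int, and 9.70 and 10.36 in CX3CR1low cells, and the CX3CR1low arrays overlapped both other subsets. Snhg7 was at 6.84 and 6.07 in CX3CR1high, 5.43 and 5.35 in CX3CR1int, and 6.23 and 5.81 in CX3CR1low cells. Not every host followed: Snhg10 was at 6.82 and 6.83 in CX3CR1high, 6.79 and 6.75 in CX3CR1int, and 6.75 and 6.60 in CX3CR1low cells, nearly level over all arrays. Snhg4 and Snhg17 likewise differed by 0.14 and 0.05 between CX3CR1high and CX3CR1int cells. Of the 2 dimmer probe sets of Snhg17, however, the brighter was lowest in CX3CR1int cells, at 5.44 and 5.57 in CX3CR1high, 5.23 and 5.32 in CX3CR1int, and 5.57 and 5.45 in CX3CR1low cells. The dimmest was lowest in CX3CR1high cells instead, at 4.41 and 4.50, with 4.77 and 4.53 in CX3CR1int and 5.32 and 4.89 in CX3CR1low cells. Snhg3 and Snhg11 counted among the 9 hosts lowest in CX3CR1int cells by gaps of only 0.03 and 0.01, and a second, dimmer probe set of Snhg11 did not have CX3CR1int cells lowest. Snhg14, the imprinted host of Snord115 and Snord116 in neurons, was dim on every array (1.93 to 2.51).

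The starts of host genes are shown because many hosts are known to begin with a run of pyrimidines, the 5′ terminal oligopyrimidine feature shared with ribosomal protein genes, and because the hosts moved together here. Below are 70 bases per gene on the gene's own strand, 40 before and 30 from the RefSeq transcript start (GRCm38.p6), for 4 hosts that were lowest in CX3CR1int cells, then for Snhg15, also lowest there, and for Snhg10, which was not. Capitals mark the longest run of 6 or more C or T letters that overlaps the stretch from 10 bases before to 15 bases after the start.
Snhg1, chr19:8723447-8723516, plus strand: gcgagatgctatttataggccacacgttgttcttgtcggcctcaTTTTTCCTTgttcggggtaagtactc
Snhg5, chr9:88522868-88522937, minus strand: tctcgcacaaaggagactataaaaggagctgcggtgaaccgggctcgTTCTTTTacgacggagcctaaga
Snhg7, chr2:26640215-26640284, minus strand: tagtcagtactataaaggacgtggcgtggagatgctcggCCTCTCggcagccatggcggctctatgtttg
Snhg12, chr4:132308638-132308707, plus strand: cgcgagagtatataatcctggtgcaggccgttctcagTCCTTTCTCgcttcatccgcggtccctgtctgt
Snhg15, chr11:6528731-6528800, minus strand: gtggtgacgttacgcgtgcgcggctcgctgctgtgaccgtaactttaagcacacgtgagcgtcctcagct
Snhg10, chr12:105032250-105032319, minus strand: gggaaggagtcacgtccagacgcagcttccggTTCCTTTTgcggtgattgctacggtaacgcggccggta
Such a run was present in 8 of the 13 host genes that had an entry, 9 of 14 starts, against 33.1% of 32851 starts of all genes. It did not set apart the hosts lowest in CX3CR1int cells. Of those, Snhg1, Snhg5, Snhg7, Snhg9 and Snhg12 had a run, and Snhg3, Snhg11, Snhg15 and Snhg20 had none. Snhg10, Snhg17 and Snhg18, tested and not lowest there, each had a run. The letters TATA, searched on the gene strand between 40 and 15 bases before the start, were present in 4 of 14 host starts, those of Snhg1, Snhg5, Snhg7 and Snhg12, against 5.90% of all starts. Those 4 differed by 0.84, 1.35, 1.06 and 0.96 between CX3CR1high and CX3CR1int cells, which with that of Snhg15 (1.15) were the 5 largest host differences. Snhg6, next at 0.805, and Snhg4 had no entry among the starts, and a relation between the letters and the differences was not tested. The letters CACGTG, which read the same on both strands, were searched from 250 bases before to 50 bases from the start, a longer stretch than is printed, and were found for Snhg9 and Snhg15, 2 of 14 starts, against 7.20% of all starts. The windows and letters were chosen with these sequences in view, and a match describes the letters only.

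**Figure D4:**
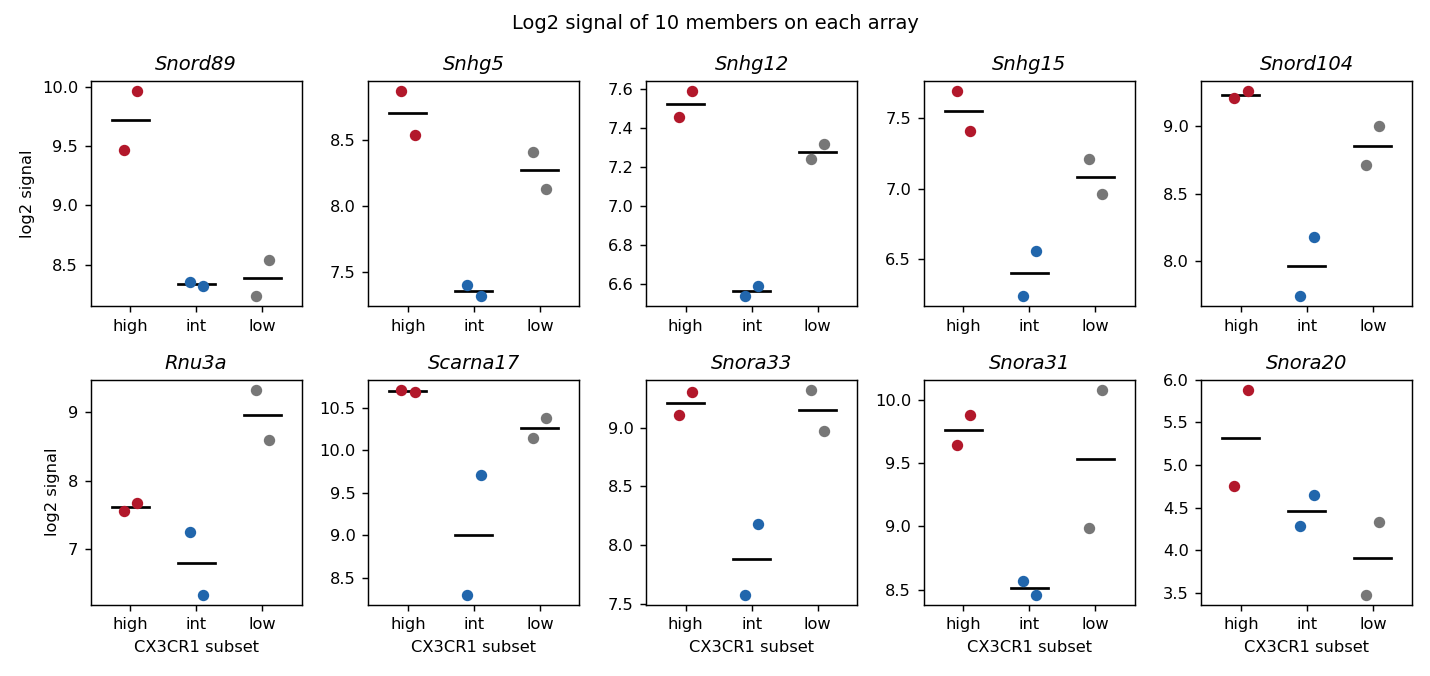
Log2 signal of 10 members on each array (points) with subset means (bars), each panel on its own scale. Snord89 stands apart in CX3CR1high cells, Snhg5, Snhg12, Snhg15, Snord104, Scarna17, Snora33 and Snora31 are lowest in CX3CR1int cells, Rnu3a is highest in CX3CR1low cells, and Snora20 is highest in CX3CR1high cells.

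Box C/D RNAs had mean log2 signals from 2.65 (Snord70) to 9.04 (Snord49b), with a median of 5.51. Snord89 broke the common shape. It was at 9.47 and 9.96 in CX3CR1high cells, 8.36 and 8.32 in CX3CR1int cells, and 8.24 and 8.54 in CX3CR1low cells, so the high subset stood alone and the other 2 overlapped. It was 2.51-fold higher in CX3CR1high than in CX3CR1low cells (log2 difference 1.33 ± 0.20, SE, n = 2 each, adjusted p = 0.0412). Against CX3CR1int cells it was 1.38 higher (adjusted p = 0.0634, or 0.0254 with the replicate term). The call against CX3CR1low cells was lost without any 1 of the 6 arrays, CX3CR1high replicate 2 among them (1.08), with adjusted p-values up to 0.261 over all alternatives.

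Snord104 was at 9.21 and 9.26 in CX3CR1high, 7.74 and 8.18 in CX3CR1int, and 8.71 and 9.0 in CX3CR1low cells. The difference between CX3CR1high and CX3CR1int cells was 1.27 ± 0.20 (SE, adjusted p = 0.0732, or 0.0255 with the replicate term). Rnu3a, a copy of U3, which is needed for the first cuts of the ribosomal precursor, was at 7.55 and 7.67 in CX3CR1high, 7.25 and 6.34 in CX3CR1int, and 9.32 and 8.59 in CX3CR1low cells. The CX3CR1int arrays were the lowest and the CX3CR1low arrays the highest, with CX3CR1int minus CX3CR1low at -2.16 ± 0.32 (SE, adjusted p = 0.317). A probe set shared by 4 other U3 copies, Rnu3b1 to Rnu3b4, also had CX3CR1int cells lowest and CX3CR1low cells highest, the latter only narrowly. It read 9.25 and 9.24 in CX3CR1high, 8.26 and 8.36 in CX3CR1int, and 9.30 and 9.28 in CX3CR1low cells. The copies are near-identical, so signal may be shared among them.

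Snord65 had the largest difference between CX3CR1high and CX3CR1int cells among box C/D RNAs, 1.57, at 7.99 and 8.37 in CX3CR1high, 6.64 and 6.58 in CX3CR1int, and 6.94 and 8.96 in CX3CR1low cells. The CX3CR1low arrays lay on both sides of the CX3CR1high arrays, the SE was 0.52, and the difference did not pass (adjusted p = 0.471). Snord92 had the widest gap of its class, with CX3CR1int arrays (3.58 and 3.46) 0.78 below the nearest other array, although both lay under the dim level. Snord118, the U8 RNA of large subunit maturation, was at 6.40 and 6.54 in CX3CR1high, 6.23 and 5.55 in CX3CR1int, and 6.16 and 6.40 in CX3CR1low cells, where the low subset overlapped both others and the other 2 did not overlap. Snord13, which guides acetylation of ribosomal RNA, was at 7.70 and 8.36 in CX3CR1high, 9.17 and 6.37 in CX3CR1int, and 7.53 and 6.92 in CX3CR1low cells, and the CX3CR1int arrays were its highest and its lowest value. Snord15a went the other way, at 5.39 and 5.54 in CX3CR1high, 7.21 and 5.83 in CX3CR1int, and 5.54 and 5.06 in CX3CR1low cells. Snord88c, at 6.71 and 6.79 in CX3CR1high, 7.51 and 7.18 in CX3CR1int, and 6.45 and 7.01 in CX3CR1low cells, did the same. Neither passed in any comparison.

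Box H/ACA RNAs had mean log2 signals from 2.23 (Snora15) to 9.27 (Snora31), with a median of 5.53, and limma called 0 without the replicate term, with 7 at an unadjusted p below 0.05 between CX3CR1high and CX3CR1int cells. Snora33 was at 9.11 and 9.30 in CX3CR1high, 7.58 and 8.18 in CX3CR1int, and 9.32 and 8.97 in CX3CR1low cells. The CX3CR1int arrays lay 0.79 below the rest, the widest gap of all members, and CX3CR1high and CX3CR1low cells overlapped (CX3CR1high minus CX3CR1int 1.33, adjusted p = 0.0958). A second, dimmer probe set of Snora33 read 6.01 and 6.49 in CX3CR1high, 6.21 and 5.92 in CX3CR1int, and 6.94 and 6.46 in CX3CR1low cells, with no such gap. Snora31 was at 9.64 and 9.88 in CX3CR1high, 8.57 and 8.46 in CX3CR1int, and 8.99 and 10.08 in CX3CR1low cells. Snora73a and Snora73b, which act in cleavage of the small subunit precursor, were 0.49 and 0.26 higher in CX3CR1high than in CX3CR1int cells, both without overlap. Snora20 was at 4.75 and 5.88 in CX3CR1high, 4.28 and 4.65 in CX3CR1int, and 3.48 and 4.33 in CX3CR1low cells. Its difference of 1.41 between CX3CR1high and CX3CR1low cells did not pass (adjusted p = 0.238, or 0.0239 with the replicate term), and both CX3CR1low arrays lay under the dim level. Snora62 differed by 1.25 in the same comparison through 1 array, at 6.00 and 3.91 in CX3CR1high against 3.76 and 3.66 in CX3CR1low cells.

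Of the Cajal body RNAs, Scarna17 was the brightest of all members, at 10.71 and 10.68 in CX3CR1high, 8.30 and 9.71 in CX3CR1int, and 10.14 and 10.38 in CX3CR1low cells. Its difference between CX3CR1high and CX3CR1int cells, 1.69 ± 0.37 (SE), was the largest of all members in that comparison and did not pass (adjusted p = 0.197). Its second probe set had the same shape, at 9.11 and 9.42 in CX3CR1high, 6.84 and 8.33 in CX3CR1int, and 8.75 and 8.90 in CX3CR1low cells. Scarna2 was at 6.99 and 6.41 in CX3CR1high, 6.86 and 6.66 in CX3CR1int, and 7.38 and 7.74 in CX3CR1low cells, highest in the low subset.

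A further 50 probe sets carried a symbol of the rule together with other symbols and stood outside the group. After the dim filter and with 1 probe set per combination of symbols they came to 25, and both CX3CR1int arrays lay below the other 4 in 12 of them (48.0%), against 7.77% of 978 other probe sets with several symbols. Their median difference between CX3CR1high and CX3CR1int cells was 0.64, against 0.01 for those others. Snord14e with its host Hspa8 read 10.47 and 10.94 in CX3CR1high, 10.32 and 10.08 in CX3CR1int, and 10.63 and 11.25 in CX3CR1low cells. Snord57 with its host Nop56 read 5.78 and 5.62 in CX3CR1high, 4.77 and 4.13 in CX3CR1int, and 6.56 and 5.97 in CX3CR1low cells.

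Whether the RNAs followed the genes that contain them was set out by position in the RefSeq gene table, without regard to strand. Of 79 small RNA members, 68 lay in exactly 1 other gene, 52 of these in a protein-coding gene and 16 in a non-coding gene. Pairs with both partners tested numbered 43, with 33 different hosts. CX3CR1high minus CX3CR1int had a median of 0.55 over the small RNAs and 0.14 over the hosts, and the small RNA had the larger difference in 28 of 43 pairs. With protein-coding hosts, 31 pairs and 26 hosts, the medians were 0.56 and 0.11. Both CX3CR1int arrays were lowest for 11 of those 31 small RNAs (35.5%) and for 7 of the 26 hosts (26.9%), against 5.85% of all genes. In a separate list of 36 known protein-coding hosts, 2 genes (5.56%) were lowest in CX3CR1int cells, so the share among hosts depended on how hosts were listed. Across the 43 pairs the 2 differences correlated at r = 0.17, a description of pairs that share arrays and, in part, hosts.

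**Figure D5:**
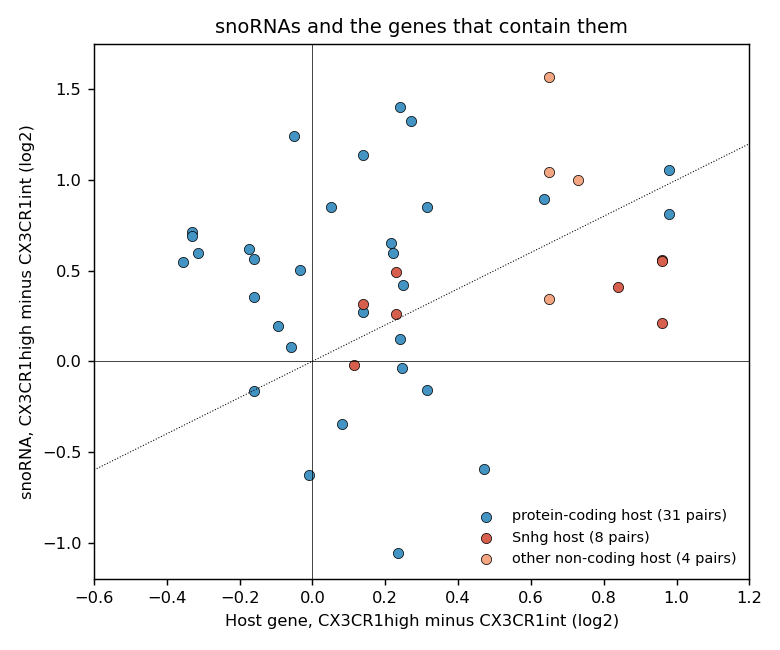
Log2 difference CX3CR1high minus CX3CR1int of each tested small RNA (vertical) against that of the single gene that contains it (horizontal), 43 pairs coloured by kind of host, with a dotted line of equal differences. Most pairs, 28 of 43, lie above the line, but 5 of the 8 pairs with Snhg hosts lie below it.

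Single pairs ranged widely. Snora31 differed by 1.25 while its host Tpt1, a translationally controlled protein gene, differed by -0.05. Snora33 differed by 1.33 and its host Rps12 by 0.27, and Snora41 by 1.14 and its host Eef1b2, an elongation factor gene, by 0.14. Some hosts differed about as much as their RNAs, though Rpl3, 1110038B12Rik and Rpl32 were not called. For Rpl3, Snord83b and Snord43 differed by 1.05 and 0.81 and the host by 0.98, at 9.88 and 9.53 in CX3CR1high, 9.0 and 8.45 in CX3CR1int, and 9.39 and 9.14 in CX3CR1low cells (adjusted p = 0.207). Snord52 differed by 1.0 and its host 1110038B12Rik by 0.73, and Snora7a by 0.90 and its host Rpl32 by 0.64. Within Snhg12 the order was reversed, with 0.56, 0.21 and 0.56 for Snora44, Snora61 and Snord99 against 0.96 for the host. Whether a probe set on a short intron RNA also reads the unspliced host was not tested.

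The genes of proteins that bind or use these RNAs had smaller median differences. Lists of box C/D core proteins (3 tested), box H/ACA core proteins (4), particle assembly (13), the small subunit processome and ribosomal RNA processing (36), RNA polymerase I transcription (13), other non-coding hosts (6) and known protein-coding hosts (36) had 0 genes called by limma in any comparison, with or without the replicate term. Of all genes, 0.142% were called by limma between CX3CR1high and CX3CR1int cells without the replicate term. At an unadjusted p below 0.05 each list held 0 to 2 genes in that comparison, where 4.17% of all genes were higher and 3.72% lower. Their medians for CX3CR1high minus CX3CR1int were 0.14, 0.26, -0.02, 0.00, 0.07, 0.09 and 0.09, against 0 for all genes. The number with both CX3CR1int arrays lowest was 1, 1, 1, 2, 0, 0 and 2. This held for 5.85% of all genes tested. The share was 7.69% for particle assembly, and 5.56% each for ribosomal RNA processing and known protein-coding hosts, close to that of all genes. The core protein lists, with 3 and 4 genes tested, were too small for a share to be compared. Nop56, a core protein of box C/D particles, had the largest difference of the core proteins, at 8.40 and 8.22 in CX3CR1high, 7.82 and 7.42 in CX3CR1int, and 8.07 and 7.82 in CX3CR1low cells (0.69, adjusted p = 0.395). Zfas1, a non-coding host of box C/D RNAs, was at 9.11 and 9.37 in CX3CR1high, 8.44 and 9.16 in CX3CR1int, and 9.08 and 9.55 in CX3CR1low cells. Ribosomal protein genes were taken as all symbols that begin with Rpl or Rps and a digit, 74 in all. Such a match can take in genes of other proteins and leaves out Rpsa. The set had a median of 0.07, and 2 of its genes (2.7%) were lowest in CX3CR1int cells. MicroRNA genes, another class of short RNAs, had a median of 0.04 over 179 genes, and 19 of them (10.6%) were lowest there.

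Other measures differed between the subsets as well. Markers of keratinocytes and fibroblasts, 21 genes, averaged 6.87 and 6.86 in CX3CR1high, 7.05 and 7.15 in CX3CR1int, and 7.37 and 7.84 in CX3CR1low cells. That of 5 tested mast cell markers was 4.80 and 4.72 in CX3CR1high, 5.89 and 5.89 in CX3CR1int, and 6.63 and 6.25 in CX3CR1low cells. Cell cycle genes, 9 in all, averaged 7.29 and 7.83 in CX3CR1high, 7.14 and 7.02 in CX3CR1int, and 6.70 and 6.69 in CX3CR1low cells. In these 3 lists CX3CR1int cells lay between the other subsets. The subset means of endothelial and of Langerhans or dendritic markers had that order too. Markers of T or innate lymphoid cells, 4 tested, had their lowest subset mean in CX3CR1int cells. They averaged 6.26 and 6.27 in CX3CR1high, 6.22 and 6.17 in CX3CR1int, and 6.04 and 6.60 in CX3CR1low cells. Whether the mixture of cells bears on the members was not tested. In bulk samples, less RNA per cell and fewer cells that hold it cannot be told apart.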

How the data were processed

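Per the submitters' processing notes, the arrays were summarised by RMA with Affymetrix Expression Console 1.4. The deposited log2 signals, 1 column per array, entered unchanged. Per the labels' protocols, total RNA from a column kit was amplified with a whole-transcriptome system and labelled with biotin, so short RNAs were measured after that preparation. The genome build behind the probe sets is not given in the sources used here. Of 34390 probe sets, 23521 carried 1 symbol, and the brightest by mean over all arrays stood for each of 22180 genes (5 members had more than 1 probe set). Genes with a mean under the 30th percentile were left out of tests, which left 15529.

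The fit used limma 3.58.1 in R 4.3.3, with 3 subset means over all 6 arrays and an intensity trend in the variance prior. Its moderated p-values were two-sided and were adjusted by Benjamini and Hochberg's method over every gene tested, with calls at 0.05. The script was tested on simulated data. Each variance rested on 3 residual degrees of freedom plus 5.77 from the prior, and precision is limited by having 2 arrays per subset (median SE of a log2 difference 0.193). Array medians were 4.84 to 4.94, and arrays correlated across genes at 0.974 to 0.977 within and 0.960 to 0.978 between subsets.

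Over all genes, same-numbered replicates deviated together weakly. The correlations were 0.146 for CX3CR1int with CX3CR1low, 0.136 for CX3CR1high with CX3CR1low, and 0.178 for CX3CR1high with CX3CR1int. Over the members they were 0.077, 0.227 and -0.097 in the same order, so members did not deviate together in the last pair. The labels do not say what the number marks, and each subset has only 2 arrays, so the term for the replicate number is an alternative fit.

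The naming rule took those called, the 2 largest differences each way per class and comparison, and the 3 brightest per class. It also took a fixed set of well-known members and the hosts of named RNAs. Not all that met it are described: Snord66, Snord87, Snora23, Snora75, Snhg18 and Snhg20, for example, are left out. Those outside the rule, such as Snhg17 and Snord13, were picked after their values were seen. Members, lists and tests were chosen with earlier results of these data known. The count of genes lowest in CX3CR1int cells, its alternatives, and the microRNA and ribosomal protein sets were added after seeing the data. All 94 members matched the RefSeq gene table (GRCm38.p6), which gives no strand here, so hosts were assigned by position alone. Promoter sequences are RefSeq's. Sequences of the small RNAs themselves were not used here.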

Additional observations from a re-analysis of the deposited data

How the results depend on the processing

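Low counts of calls make the called members fragile. The count between CX3CR1high and CX3CR1low cells was 2 with the replicate block, and 0 with only the 2 subsets compared, without the dim filter, with median centring, with every probe set tested on its own and with centring on genes outside the group. The count between CX3CR1high and CX3CR1int cells was 3 with the replicate block, 2 with the 50th percentile filter and with a robust variance prior, and 0 with only the 2 subsets, without the dim filter, with quantile normalization, with median centring, without the intensity trend, with every probe set on its own and with centring outside the group. Leaving out each replicate gave counts of 0 to 1 in both, and 0 in CX3CR1int against CX3CR1low cells. The member then called was Snora62 between CX3CR1high and CX3CR1low cells (without CX3CR1high replicate 2), and Snord65 (without either CX3CR1low array) or Scarna17 (without CX3CR1int replicate 2) between CX3CR1high and CX3CR1int cells. All-gene counts moved too, between 0 and 154, 0 and 47, and 0 and 1 in the 3 comparisons over all settings.

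The medians over all members kept their direction under all settings run. Of the class medians, that of box H/ACA RNAs for CX3CR1high minus CX3CR1low was -0.09 without CX3CR1low replicate 1, and those of the 2 Cajal body RNAs turned sign for CX3CR1high minus CX3CR1int without the dim filter (-0.06) and for CX3CR1high minus CX3CR1low with every probe set on its own (0.008). Over all members, leaving out each replicate gave 0.04 to 0.23 for CX3CR1high minus CX3CR1low (0.04 without CX3CR1low replicate 1), 0.36 to 0.58 for CX3CR1high minus CX3CR1int, and -0.52 to -0.36 for CX3CR1int minus CX3CR1low, which was -0.47 with the 50th percentile filter. Both CX3CR1int arrays were below all others for 34 of 94 members without the dim filter (36.2%, against 5.72% of genes), 27 of 58 above the 50th percentile (46.6%, against 6.01%), and 29 of 75 with quantile normalization, with median centring or with the mean of all probe sets (all genes 5.98% to 6.38%). The CX3CR1int array was the lowest of its replicate number in both replicates for 37 of 75 (49.3%, against 10.2%). Leaving out each replicate gave 33 to 43 members, against 8.16% to 19.0% of genes. Leaving out arrays turned the sign of 5 uncalled differences. For CX3CR1high minus CX3CR1int, Snora47 ran from -0.4 to 0.07 (above 0 without CX3CR1int replicate 1 or CX3CR1high replicate 2), Scarna2 from -0.35 to 0.23 (above 0 without the same arrays), Snord42b from -1.28 to 0.02 and Snora30 from -0.71 to 0.02 (both above 0 without CX3CR1int replicate 2). For CX3CR1int minus CX3CR1low, Snhg4 ran from -0.035 to 0.105 (below 0 without CX3CR1low replicate 1 or CX3CR1int replicate 1). The cause of these changes was not tested, beyond the fewer arrays or genes in a fit.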
